A study of Mus musculus with 282 samples.

Results

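The genes described here are 28 genes of sterol synthesis and of its control by the SREBP transcription factors, out of 48440 gene rows in the deposited tables. They were taken from a list of names that was chosen with earlier results of these data known. Shares set beside those of all genes below therefore describe the list and do not test it. The list holds 18 enzymes of the path from acetyl-CoA to cholesterol (7 early enzymes up to farnesyl diphosphate and 11 late enzymes after it). It also holds the branch enzyme Ggps1, the 5 regulators Srebf1, Srebf2, Scap, Insig1 and Insig2, the sterol carrier Stard4, and the fatty acid genes Fasn, Scd2 and Acaca. All 28 had a row in both tables and passed the filter on low counts. They were measured in 282 single cells labelled as basal prostate stem cells of male POET3 mice. The mice carry a transgene that makes ovalbumin in the prostate, so every naive and inflamed cell came from a transgenic animal. Each cell was labelled naive or inflamed and belonged to batch 2 or batch 3, which gives 4 groups. The sources used here give neither the age and number of the mice, nor the promoter of the transgene, nor how the inflammation was brought about, nor the sort gates.

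Cells make cholesterol from acetyl-CoA through mevalonate and farnesyl diphosphate, and farnesyl diphosphate also feeds the prenylation of proteins and the synthesis of dolichol and ubiquinone. When sterols are low in the endoplasmic reticulum, SCAP carries the SREBP precursors to the Golgi, where they are cut and released to the nucleus. SREBP-2, the product of Srebf2, acts mainly on sterol genes, and SREBP-1c, a product of Srebf1, mainly on fatty acid genes. The INSIG proteins hold SCAP back when sterols are plentiful, and Insig1 is itself an SREBP target. Prostate epithelium is known for active cholesterol synthesis, and androgens are known to raise the expression of lipogenic genes in prostate cells.

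A cell was kept if it had 1000 or more detected genes and 50000 or more counts. This removed 14 cells, and 53 naive and 80 inflamed cells of batch 2 and 59 naive and 76 inflamed cells of batch 3 remained. Median depth per cell lay between 840863 and 1001872 counts, and the median number of detected genes between 3432 and 4739. The median share of mitochondrially encoded reads was 2.67% and 2.26% in naive but 3.73% and 2.82% in inflamed cells, and its part in the results was not tested. Adding up the counts of a group's cells gave 4 sums of 50105953 to 79225330 counts, 2 per condition. The label was checked against 10 basal markers, whose summed level on the counts-per-million scale (CPM, a count relative to the total of its sum) was 8277 and 10111 in naive but 13899 and 13938 in inflamed sums. Of the 10, 5 were higher and 2 lower in the inflamed sums of both batches. Krt17 made up much of the sum and was at 1668 and 3704 CPM in naive but 6864 and 5813 CPM in inflamed sums, whereas Krt5 was at 338.95 and 198.59 CPM against 139.34 and 169.94 CPM, and Trp63 was likewise lower in both batches. The 10 luminal markers summed to 1565 to 2787 CPM. Of 10 leukocyte markers, 9 had no read in any sum, and the list reached 0.684 CPM at most. Adipocyte markers, with 5 of 8 at 0, reached 3.45 CPM. Fibroblast markers summed to 3377 to 4399 CPM in all 4 groups, with 3 of 8 at 0. Nearly all of this was Dcn (3933 and 4369 CPM in naive, 3377 and 4397 CPM in inflamed sums), while Col1a1, Col1a2 and Col3a1 reached 2.34 CPM at most. The 28 genes of mitosis (G2/M), such as Mki67, moved with the condition. Their summed level was 328.4 and 107.5 CPM in the naive sums against 823.5 and 884.5 CPM in the inflamed sums, and 24 of 28 were higher in the inflamed sum in both batches. Cells with reads of at least 10 of them numbered 2 and 0 among naive and 6 and 10 among inflamed cells. Without these cells 13 members were still at least 2-fold lower in both batches (a count described below), and the median log2 fold change of the 18 sterol enzymes was -1.81 against -1.75 with all cells.

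Sterol genes were lower in the inflamed cells of both batches. Paired values below are given for batch 2 and then batch 3, naive before inflamed. Statements that groups do not overlap compare 2 sums per condition. The share of such genes among all genes tested was not counted. Of the 28 members, 18 had a lower level in the inflamed sum in batch 2 and in batch 3, none was higher in both (0 of 28), and 10 went opposite ways in the 2 batches. The background over the 14713 genes tested was 28.3% lower in both and 30.9% higher in both. At least 2-fold lower in both batches were 13 of the 28 members, against 10.6% of all genes tested, and at least 2-fold higher in both were 0 members, against 14.6%. The median log2 fold change (inflamed over naive) was -1.39 for the members, with -1.79 within batch 2 and -1.59 within batch 3, beside 0.10 for all genes tested.

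The fit by edgeR's quasi-likelihood test used the 4 sums with batch in the model, which leaves 1 residual degree of freedom. After Benjamini-Hochberg adjustment over all genes, edgeR called 0 of the 28 members and 0 of 14713 genes (0%), and the lowest adjusted p of any gene was 0.568. At an unadjusted p under 0.05 it gave 9 members as lower, against 3.23% of all genes, and 0 as higher, against 5.04%. These 9 were Hmgcs1, Insig1, Hsd17b7, Msmo1, Cyp51, Fdft1, Stard4, Acat2 and Fasn. DESeq2 on the same sums had all 9 below an adjusted p of 0.05 and no other member, where it called 4.11% of 13001 genes as lower and 7.13% as higher. The p-values rest only on how far the difference between conditions varied between the 2 batches, with information on spread shared over genes. That variation may be technical, since the labels name no animal.

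**Figure D1:**
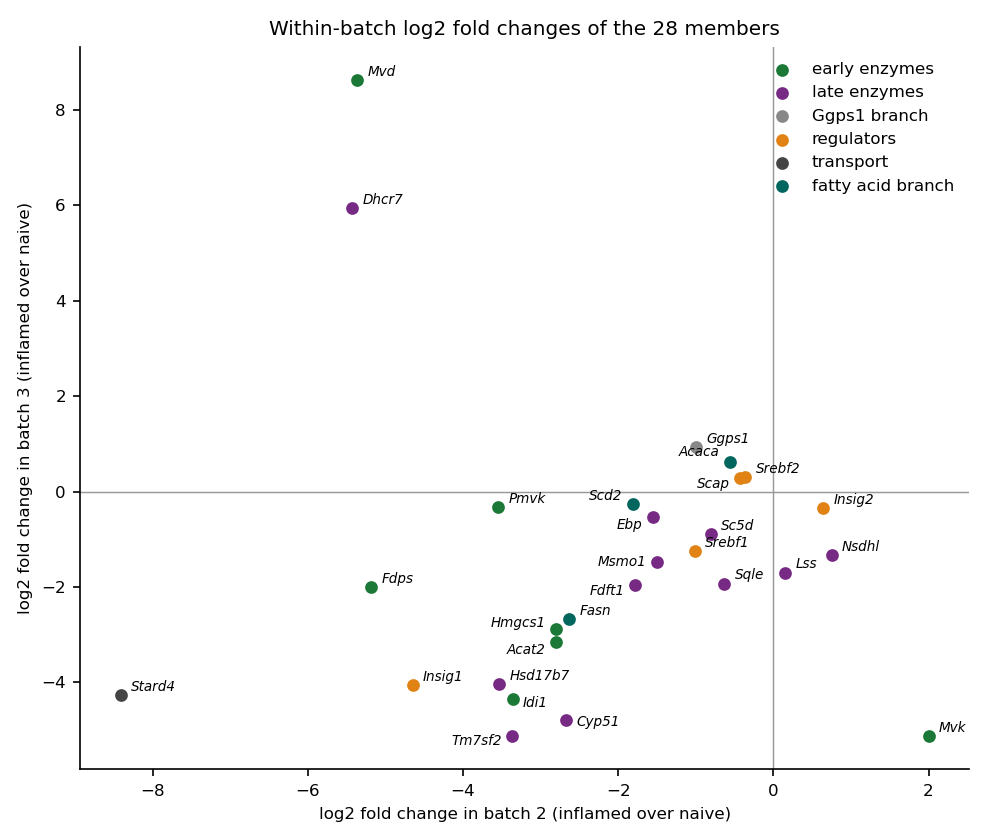
Log2 fold change (inflamed over naive) of each of the 28 members within batch 2 (horizontal axis) and within batch 3 (vertical axis), 1 point per gene, coloured by role. Of the members, 18 lie at the lower left, below 0 on both axes, none lies above 0 on both, and Mvd, Dhcr7 and Mvk lie far out with opposite signs.

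The promoters of 4 members that were lower in both batches are printed to show the sequence context in which SREBP, NF-Y and Sp1 are known to act together on sterol genes. They come from RefSeq (build GRCm38.p6), cover 250 bases before the annotated start site and are written 5′ to 3′ on the gene's strand. Hmgcs1 lies at chr13:119690101-119690350 (plus strand), Insig1 at chr5:28071162-28071411 (plus), Msmo1 at chr8:64733579-64733828 (minus) and Hsd17b7 at chr1:169969206-169969455 (minus). Capitals mark matches on either strand to an SRE-like motif (TCACNCCA), the CCAAT box (CCAAT), the GC box (GGGCGG) and the E-box CACGTG.
Hmgcs1: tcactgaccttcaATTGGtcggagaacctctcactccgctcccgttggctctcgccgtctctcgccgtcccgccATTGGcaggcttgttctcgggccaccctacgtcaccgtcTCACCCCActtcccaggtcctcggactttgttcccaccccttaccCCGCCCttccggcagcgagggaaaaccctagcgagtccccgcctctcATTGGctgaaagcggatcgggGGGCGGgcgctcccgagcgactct
Insig1: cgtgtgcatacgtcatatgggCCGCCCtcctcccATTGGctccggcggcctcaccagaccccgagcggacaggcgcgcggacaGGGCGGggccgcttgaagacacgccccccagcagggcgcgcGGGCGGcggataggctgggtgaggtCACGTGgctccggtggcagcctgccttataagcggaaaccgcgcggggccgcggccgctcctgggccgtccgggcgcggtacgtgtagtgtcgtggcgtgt
Msmo1: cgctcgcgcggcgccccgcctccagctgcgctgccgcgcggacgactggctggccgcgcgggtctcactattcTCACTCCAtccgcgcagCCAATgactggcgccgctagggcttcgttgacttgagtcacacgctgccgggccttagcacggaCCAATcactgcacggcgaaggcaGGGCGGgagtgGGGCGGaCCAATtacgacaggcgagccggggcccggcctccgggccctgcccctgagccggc
Hsd17b7: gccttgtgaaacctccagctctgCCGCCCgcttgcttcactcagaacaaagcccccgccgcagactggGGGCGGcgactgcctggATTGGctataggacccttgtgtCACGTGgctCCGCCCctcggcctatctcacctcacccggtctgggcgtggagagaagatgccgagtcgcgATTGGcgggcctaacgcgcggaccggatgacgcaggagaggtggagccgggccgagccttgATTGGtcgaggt
The Hmgcs1 promoter held the SRE-like word TCACCCCA, and the Msmo1 promoter held TCACTCCA. The promoters of Insig1 and Hsd17b7 held no match to TCACNCCA in this window, and each held CACGTG. The search, over 300 bases that include 50 after the start, covered 31 promoters of 23 members. Fdps, Fdft1, Sqle, Stard4 and Scd2 were not searched. The SRE-like motif was in 9.68% of the members' promoters and in 4.36% of all 32851 promoters of the same length, and its carriers were Hmgcs1, Msmo1 and Srebf2. The CCAAT box was in 67.7% against 37.4%, the GC box in 74.2% against 35.7% and CACGTG in 19.4% against 7.15%. An SRE-like match that ran on into CCAAT would count for both motifs, which none of the printed ones does. A match describes letters and not a bound site.

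Among the early enzymes, Hmgcs1, which joins acetyl-CoA to acetoacetyl-CoA to make HMG-CoA, had the highest level per kilobase of exon of all members in both naive sums, at 332.8 and 401.2 CPM per kb. Its level was 1529 and 1843 CPM in the naive sums of batches 2 and 3 and 219.0 and 249.1 CPM in the inflamed sums. Both inflamed values lay far below both naive ones, by 6.98-fold in batch 2 and 7.40-fold in batch 3, and the 2 batches gave nearly the same size. The fitted log2 fold change was -2.85 ± 0.27 (SE), with an unadjusted p of 0.000733 and an adjusted p of 0.568 by edgeR. Without the cells with reads of mitotic genes it was -2.99. Of its 50-base stretches, 11.6% also occur in another gene, mainly the antisense Gm48342, and the sources used here do not say whether strand was kept.

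Acat2, the cytosolic thiolase of the first step, stood at 47.6 and 72.7 CPM in naive but 6.80 and 8.18 CPM in inflamed cells. Its groups did not overlap, and the log2 fold change was -2.98 ± 0.79 (unadjusted p = 0.0233, adjusted p = 0.568, edgeR). Of its 50-base stretches 39.1% also occur in the near copy Acat3, so part of its reads cannot be placed with certainty. Idi1, the isomerase that makes dimethylallyl diphosphate, was a low gene with 8.20 and 14.3 CPM against 0.774 and 0.671 CPM (log2 fold change -3.90 ± 1.75, unadjusted p = 0.0959 by edgeR). Fdps, farnesyl diphosphate synthase, had 9.37 and 22.8 CPM in naive but 0.228 and 5.67 CPM in inflamed sums, where 1 cell gave 84.9% of the reads in batch 3 (-3.66 ± 1.92, unadjusted p = 0.135 by edgeR). Both genes were lower in each batch, and neither met an unadjusted p under 0.05. In Idi1 and Fdps 25.3% and 26.2% of the 50-base stretches occur in other genes too.

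The 3 enzymes that phosphorylate and decarboxylate mevalonate gave no common picture. Pmvk was at 43.2 and 35.4 CPM in naive but 3.65 and 28.4 CPM in inflamed sums, so that its gap was wide in batch 2 and small in batch 3. Mvk rested on single cells, with 2.46 and 6.97 CPM against 9.95 and 0.171 CPM, and the top cell of each sum held 69.2% to 100% of its reads. Mvd was at 22.7 CPM in naive batch 2 and 28.9 CPM in inflamed batch 3, but at 0.0421 CPM in naive batch 3 and 0.520 CPM in inflamed batch 2. Its within-batch log2 fold changes were -5.36 and 8.63, so the batches contradicted each other, as they did for Mvk at 2.00 and -5.12. The fitted values were -1.94 ± 1.36 for Pmvk, -1.63 ± 4.32 for Mvk and 1.68 ± 17.14 for Mvd.

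Late in the path, Cyp51 is the lanosterol demethylase, and Msmo1 is an oxidase that helps to remove other methyl groups from the ring. They were the most abundant enzymes per length after Hmgcs1 in the naive sums. Cyp51 stood at 119.2 and 83.9 CPM per kb there and Msmo1 at 137.7 and 105.8 CPM per kb. On the CPM scale Cyp51 had 526.3 and 370.2 in naive and 82.5 and 13.4 in inflamed sums. It was 6.38-fold lower in batch 2 and 27.5-fold in batch 3, with no overlap between the conditions (log2 fold change -3.73 ± 0.73, unadjusted p = 0.00869, adjusted p = 0.568, edgeR). Msmo1 had 846.3 and 650.1 CPM against 298.5 and 233.9 CPM. The gap was 2.84-fold and 2.78-fold in the 2 batches, smaller than that of Cyp51 but equally clear of overlap (-1.49 ± 0.28, unadjusted p = 0.0078, adjusted p = 0.568, edgeR). One inflamed cell of batch 3 gave 28.5% of the Msmo1 reads of its sum. The log2 fold change was -1.13 when each cell had the same weight.

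Hsd17b7, the ketoreductase of the demethylation complex that includes Msmo1, was at 102.9 and 107.8 CPM in naive but 8.88 and 6.59 CPM in inflamed sums. These values are 11.5-fold and 16.3-fold apart, 1 naive cell gave 56.9% of the reads in batch 2, and the log2 fold change was -3.78 ± 0.64 (unadjusted p = 0.00531, adjusted p = 0.568, edgeR). Nsdhl, the dehydrogenase of that complex, did not share this pattern, with 12.3 and 60.5 CPM against 20.8 and 24.1 CPM and opposite signs in the 2 batches (-0.29 ± 1.01). Fdft1, the squalene synthase that commits farnesyl diphosphate to sterols, had 165.5 and 218.5 CPM in naive but 48.2 and 56.1 CPM in inflamed sums (-1.87 ± 0.40, unadjusted p = 0.0118, adjusted p = 0.568, edgeR). Its groups were apart by 3.43-fold and 3.90-fold, and 26.5% of its 50-base stretches occur in another gene, mostly in Ctsb on the opposite strand.

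Sqle, the squalene epoxidase, known as a rate-limiting enzyme of the late path, had 98.7 and 242.5 CPM in naive but 63.6 and 63.7 CPM in inflamed sums. Both inflamed values were below both naive ones, but the naive sum of batch 2 lay nearer to the inflamed sums than to the other naive sum (log2 fold change -1.28 ± 0.54, unadjusted p = 0.0813 by edgeR). Ebp, a sterol isomerase, was 2.94-fold and 1.44-fold lower, and Sc5d, a sterol desaturase, 1.75-fold and 1.86-fold lower. Sc5d levels were 128.6 and 193.8 CPM against 73.5 and 103.99 CPM, and Ebp levels 68.2 and 59.6 CPM against 23.2 and 41.4 CPM. Neither gene's groups overlapped, and their log2 fold changes were -0.85 ± 0.38 for Sc5d and -1.04 ± 0.68 for Ebp.

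The reads of the remaining late enzymes, Tm7sf2, Dhcr7 and Lss, came mostly from single cells. Tm7sf2, a sterol reductase, was at 10.1 and 1.05 CPM in naive sums against 0.951 and 0 CPM in inflamed sums, and at least 92% of the reads came from 1 cell in each sum that had any. Dhcr7, which catalyses the last step to cholesterol in one branch, was at 1.84 and 0 CPM in naive but at 0.0127 and 1.88 CPM in inflamed sums. Lss, the cyclase that makes lanosterol, was at 7.62 and 82.1 CPM against 8.44 and 25.2 CPM, and 1 naive cell of batch 3 held 99.8% of its reads there. Ggps1, which makes geranylgeranyl diphosphate for protein prenylation, belongs to a side branch, and its top cell held 23.4% to 34.9% of its reads. It was at 73.9 and 25.2 CPM against 37.0 and 48.6 CPM, lower in batch 2 and higher in batch 3. The levels of these 4 genes give no direction that both batches support, except for Tm7sf2, which was lower in both. Their standard errors in the fit ran from 0.85 for Ggps1 (-0.03) and 0.95 for Lss (-0.78) to 2.88 for Tm7sf2 (-5.41) and 16.95 for Dhcr7 (0.38).

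**Figure D2:**
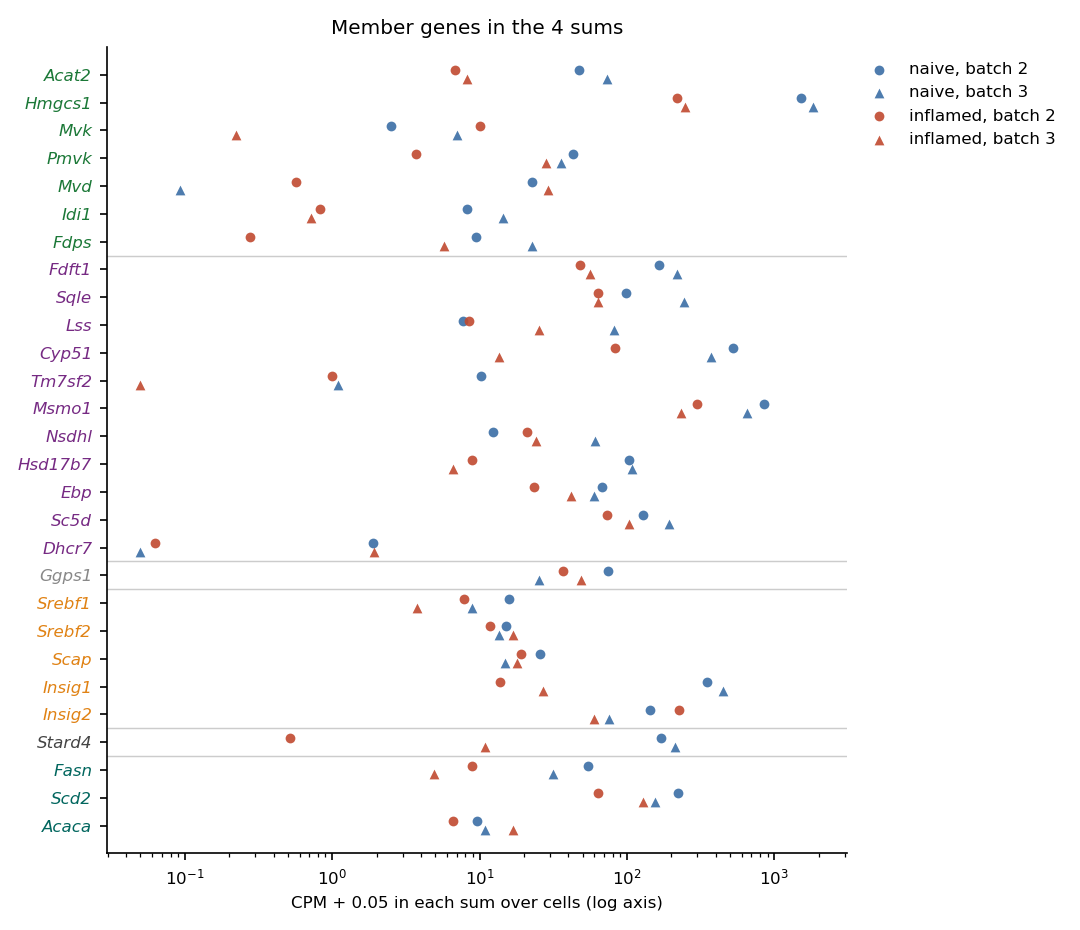
Level of each of the 28 members in the 4 sums, in CPM plus 0.05 on a log axis; circles are batch 2, triangles batch 3, blue naive and red inflamed, and grey lines separate the roles. The red symbols of Hmgcs1, Hsd17b7, Cyp51, Msmo1, Insig1 and Stard4 lie to the left of both blue ones, and for Srebf2, Scap and Insig2 the red and blue ranges overlap.

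Insig1, the sterol-controlled anchor that retains SCAP, stood at 347.0 and 447.9 CPM in the naive sums against 13.8 and 26.9 CPM in the inflamed ones. The inflamed levels were 25.1-fold lower in batch 2 and 16.6-fold in batch 3, with a fitted log2 fold change of -4.35 ± 0.42 (unadjusted p = 0.000752, adjusted p = 0.568, edgeR). No single cell gave more than 16% of the reads of a sum. Insig2, the second anchor protein, whose gene is not under the same SREBP control, had 143.6 and 75.5 CPM in naive but 224.2 and 59.6 CPM in inflamed sums. Its groups overlapped, its batches disagreed in sign (0.64 and -0.34 on the log2 scale), and its fitted log2 fold change was 0.15 ± 0.47. Per kilobase, Insig2 at 64.6 CPM per kb was above every other member in the inflamed sum of batch 2, where Insig1 stood at 4.46 CPM per kb.

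The SREBP genes themselves were lowly expressed, at 0.661 to 2.78 CPM per kb. Srebf2 had 15 and 13.5 CPM in naive but 11.7 and 16.7 CPM in inflamed sums, and Scap, the escort protein, 25.7 and 14.8 CPM against 19.1 and 18 CPM. For both genes the ranges of naive and inflamed sums overlapped, and the fitted log2 fold changes were -0.03 ± 1.16 and -0.07 ± 1.00. With errors of this size a change of 2-fold in either direction was not detectable. Srebf1 was at 15.7 and 8.80 CPM in naive but 7.79 and 3.72 CPM in inflamed sums. That is 2.01-fold and 2.35-fold lower, with a log2 fold change of -1.12 ± 1.37 and an unadjusted p of 0.463 by edgeR. Among the 5 regulators, 2 were lower in both batches, Insig1 and Srebf1, beside 28.3% of all genes tested. The median log2 fold change of the 5 was -0.07.

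Stard4, a soluble carrier that moves cholesterol between membranes, had 170.5 and 210.9 CPM in the naive sums against 0.469 and 10.9 CPM in the inflamed ones. It had the lowest fitted value of all members, with a log2 fold change of -6.34 ± 1.55 (unadjusted p = 0.0177, adjusted p = 0.568, edgeR). The inflamed sum of batch 2 held only 37 Stard4 reads, of which 1 cell gave 81.1%, against 9621 reads in the naive sum. Within batch 2 the log2 fold change was -8.41 and within batch 3 it was -4.27, so the size is poorly fixed while the direction was shared.

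Fasn, the fatty acid synthase, was at 54.4 and 31.4 CPM in naive but 8.79 and 4.89 CPM in inflamed sums. The gap was 6.17-fold and 6.39-fold (log2 fold change -2.66 ± 0.91, unadjusted p = 0.0487, adjusted p = 0.568, edgeR), but 1 inflamed cell gave 97.3% of the Fasn reads in batch 3 and 1 naive cell 63.1% in batch 2. Without the top cell of each sum the log2 fold change was -4.51, and edgeR's unadjusted p missed 0.05 with no filter on low genes and without the cells with mitotic reads. Scd2, a desaturase of fatty acids, had 222.4 and 154.04 CPM against 63.4 and 128.2 CPM, which is 3.51-fold lower in batch 2 and 1.20-fold in batch 3 (-1.04 ± 0.57, unadjusted p = 0.147 by edgeR). Acaca, the carboxylase that makes malonyl-CoA, was low and differed in sign between the batches, at 9.60 and 10.9 CPM against 6.51 and 16.7 CPM (0.03 ± 1.34). Of its 50-base stretches 30.4% occur in another gene.

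Set side by side, 13 of the 18 sterol enzymes and 2 of the 3 fatty acid genes were lower in both batches, beside 28.3% of all genes tested. The sterol enzymes summed to 3631 and 3981 CPM in naive but 869.5 and 891.3 CPM in inflamed sums, which is 4.18-fold and 4.47-fold lower. The fatty acid genes summed to 286.4 and 196.3 CPM against 78.7 and 149.8 CPM, which is 3.64-fold lower in batch 2 and 1.31-fold in batch 3. The sterol sum had nearly the same gap in the 2 batches and the fatty acid sum did not. Median log2 fold changes were -1.75 for the sterol branch (-2.74 and -1.95 within batches 2 and 3) and -1.04 for the fatty acid branch (-1.81 and -0.26). Over only the members read in at least 20% of cells, which left 11 sterol enzymes and, without Acaca, 2 fatty acid genes, the medians were -1.95 and -1.86. The difference between the branches was not tested.

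Within the sterol branch, 5 of 7 early and 8 of 11 late enzymes were lower in both batches, beside 28.3% of all genes tested. At least 2-fold lower in both were 4 early and 5 late enzymes, beside 10.6% of all genes tested. Early enzymes summed to 1662 and 1995 CPM in naive but 240.9 and 321.1 CPM in inflamed sums, a gap of 6.90-fold and 6.21-fold. Late enzymes summed to 1968 and 1986 CPM against 628.6 and 570.2 CPM, a gap of 3.13-fold and 3.48-fold. The early sum is mostly Hmgcs1. In the medians, which give each enzyme 1 vote, early enzymes had -2.85 (-3.36 and -2.89 within batches) and late enzymes -1.28 (-1.55 and -1.70). Single late enzymes such as Cyp51 and Hsd17b7 had fitted values below that of Hmgcs1, so the 2 stages overlapped gene by gene, and their difference was not tested.

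Cell by cell, the summed level of the 18 sterol enzymes ranged from 24.2 to 15615 CPM with a median of 3189 CPM in naive cells of batch 2. In naive cells of batch 3 it ranged from 9.87 to 17494 CPM with a median of 2409 CPM. Inflamed cells had a median of 413.7 CPM in batch 2 (3.45 to 5581 CPM) and 525.8 CPM in batch 3 (0 to 15809 CPM, with 5 cells at 0). The ranges overlapped widely, but most inflamed cells sat in the lower part of the naive range. Below the naive median of their own batch were 76 of 80 inflamed cells in batch 2 (95%, exact Clopper-Pearson 95% interval 87.7 to 98.6%) and 70 of 76 in batch 3 (92.1%, 83.6 to 97%). Below the lowest naive cell were 12 of 80 (15%) and 12 of 76 (15.8%). Intervals cover counting error over cells only, since cells of a group share their batch. Without Hmgcs1 the medians of the other 17 enzymes were 1731 and 874.5 CPM in naive but 273.7 and 376.3 CPM in inflamed cells, so the same order of conditions held within each batch.

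**Figure D3:**
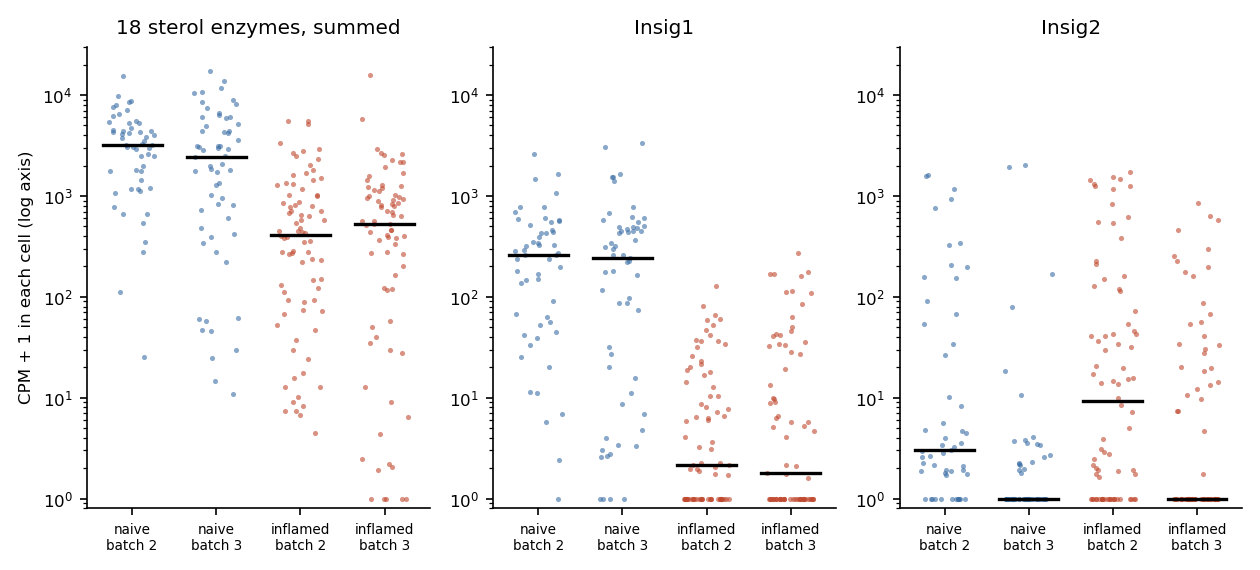
Level in each kept cell, in CPM plus 1 on a log axis, of the 18 sterol enzymes summed, Insig1 and Insig2; points are cells, bars are group medians, blue is naive and red inflamed. Inflamed medians of the sterol sum (413.7 and 525.8 CPM) and of Insig1 (1.16 and 0.780 CPM) lie below the naive ones, and those of Insig2 do not.

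Naive cells had reads of a median of 8 and 7 of the 18 sterol enzymes and inflamed cells of 5 and 4. After each cell was thinned to 500000 counts, which left out 7 and 4 naive and 10 and 4 inflamed cells with fewer, the medians were 7 and 6 against 4 and 3. Insig1 was read in 98.1% and 93.2% of naive cells but in only 58.8% and 52.6% of inflamed cells, and thinning gave 95.7% and 90.9% against 55.7% and 51.4%. The median level of Insig1 per cell was 261.8 and 242.9 CPM in naive but 1.16 and 0.780 CPM in inflamed cells, and the highest inflamed cell, at 126.97 CPM in batch 2 and 270.66 CPM in batch 3, was below the naive median in the first and just above it in the second. At least 10 reads of Insig1 were found in 83% and 74.6% of naive but in 28.8% and 35.5% of inflamed cells. The gap was thus seen both in the number of cells with a read and in the level.

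Hmgcs1 was read in every naive cell (100% of 53 and of 59) and in 92.5% and 55.3% of inflamed cells. With at least 10 reads, a minimum chosen after seeing the data, the shares were 96.2% and 78% in naive and 46.2% and 34.2% in inflamed cells. Stard4 was read in 73.6% and 79.7% of naive but in 10.0% and 10.5% of inflamed cells, and Cyp51 in 100% and 94.9% against 41.2% and 31.6%. At least 10 reads of Stard4 were found in 37.7% and 28.8% of naive against 1.25% and 7.89% of inflamed cells. For Cyp51 the shares with at least 10 reads were 71.7% and 44.1% against 21.2% and 10.5%. Fdps was read in 39.6% and 50.8% against 5% and 10.5%, and Fasn in 45.3% and 30.5% against 15% and 5.26%. For these genes both inflamed shares lay below both naive ones. Hsd17b7 was read in 39.6% and 39% of naive against 11.2% and 30.3% of inflamed cells. At least 10 reads of it were found in few cells, 7.55% and 13.6% of naive and 6.25% and 5.26% of inflamed cells. Scd2 was read in 71.7% and 54.2% of naive and 51.2% and 61.8% of inflamed cells, and Insig2 in 77.4% and 35.6% against 70% and 40.8%. The shares of these last 2 genes overlapped between the conditions.

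**Figure D4:**
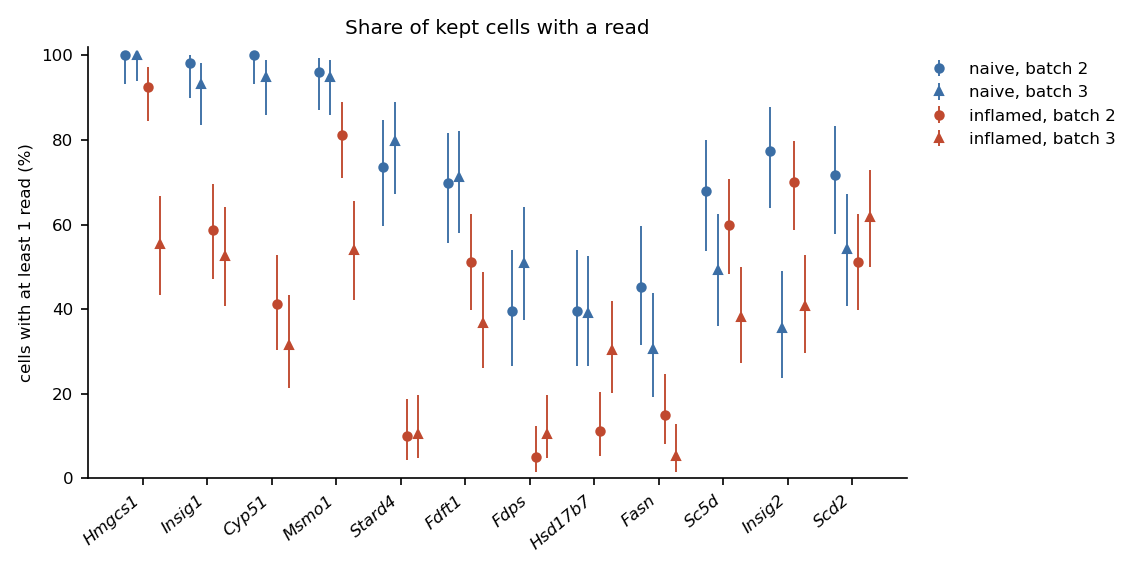
Share of kept cells with at least 1 read of 12 genes, in percent, with exact 95% intervals for counting error; circles are batch 2, triangles batch 3, blue naive and red inflamed. Red symbols of Insig1, Cyp51, Stard4, Fdps and Fasn lie below the blue ones, and those of Insig2 and Scd2 are mixed.

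Across the cells of a group, Hmgcs1 and Insig1 levels went together in naive cells, with a Spearman correlation of 0.45 over 53 cells of batch 2 and 0.70 over 59 cells of batch 3. In inflamed cells it was 0.11 over 80 cells and 0.26 over 76 cells, where 33 and 36 cells had no read of Insig1. For Hmgcs1 and Msmo1 the values were 0.36 and 0.65 in naive and 0.29 and 0.22 in inflamed cells. Cyp51 and Msmo1 had no common pattern, with -0.05 and 0.32 in naive but 0.30 and -0.04 in inflamed cells. Hmgcs1 and Insig2 showed no such relation in any group (-0.09 to 0.16). The summed sterol level and the number of detected genes of a cell, which share its depth, had correlations of -0.01 and 0.31 in naive and 0.22 and 0.21 in inflamed cells. These values describe cells that share a batch, and counts per gene were sparse.

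Of 11 tested further genes of cholesterol supply outside the members, 5 were lower and 2 higher in both batches. Beside this stand 28.3% and 30.9% of all genes tested. The median log2 fold change of this list was -0.84. Among the higher genes was Npc2, which carries cholesterol out of lysosomes, at 83.6 and 134.96 CPM in naive sums against 232.6 and 250.8 CPM in inflamed ones. Both inflamed sums were above both naive ones (log2 fold change 1.18 ± 0.38, unadjusted p = 0.0409, adjusted p = 0.568, edgeR). Npc2 was named for a large fold with 1 direction in both batches, which favours this separation and a small p.

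In the machinery that moves and cuts SREBP, both batches had 3 of 10 genes lower and 5 higher, beside 28.3% and 30.9% of all genes tested. The median log2 fold change was 0.30, with -0.27 and 0.92 within batches 2 and 3. At edgeR's unadjusted p under 0.05 there was 1 gene in each direction, beside 3.23% of all genes lower and 5.04% higher. Sec24a, a coat protein of the vesicles that leave the endoplasmic reticulum, was lower, at 295.4 and 277.6 CPM against 91.9 and 147.8 CPM. Rnf139, a ubiquitin ligase tied to sterol control, was higher, at 14.4 and 5.43 CPM against 70.6 and 35.2 CPM, and Erlin2 was at 23.8 and 7.81 CPM against 28.4 and 38.3 CPM.

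Of 17 tested further genes of fatty acid and lipid synthesis, 7 were lower and 1 higher in both batches, beside 28.3% and 30.9% of all genes tested. Their median log2 fold change was -0.68, and 1 of them was lower at edgeR's unadjusted p under 0.05, against 3.23% of all genes. That gene was Fads1, a desaturase of polyunsaturated fatty acids, at 88.9 and 63.3 CPM in naive but 19 and 14.8 CPM in inflamed sums (-2.16 ± 0.64, unadjusted p = 0.0327 by edgeR). Lpin1, a phosphatidate phosphatase, had 187.4 and 117.8 CPM against 29.5 and 64.5 CPM, and Scd1, the close relative of Scd2, had 114.1 and 169.1 CPM against 35.9 and 92.8 CPM. In these 3 genes the inflamed sums were below both naive sums. They were named for large folds with 1 direction in both batches, which favours this separation.

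Genes of efflux, esterification and oxysterol handling went both ways, as did all genes tested. Of 12 tested, 3 were lower and 4 higher in both batches, beside 28.3% and 30.9% of all genes. Their median log2 fold change was 0.49 (0.21 and 0.16 within batches 2 and 3). The edgeR unadjusted p was under 0.05 for 1 lower and 2 higher genes, beside 3.23% and 5.04% of all genes. Apoe, the apolipoprotein of cholesterol efflux, was lower, at 2055 and 2291 CPM in naive but 840.2 and 691.2 CPM in inflamed sums (-1.51 ± 0.27, unadjusted p = 0.00659, adjusted p = 0.568, edgeR). Cyp27a1, which makes the oxysterol 27-hydroxycholesterol, was higher, at 4.47 and 13.1 CPM against 100.6 and 66.6 CPM (3.42 ± 0.95, unadjusted p = 0.0265, adjusted p = 0.568, edgeR). Reads of Cyp27a1 were found in 7.55% and 11.9% of naive cells against 43.8% and 36.8% of inflamed cells. Osbp, an oxysterol-binding protein, was at 28.7 and 4.87 CPM against 33.1 and 21.8 CPM. Apoe, Cyp27a1 and Osbp were named for large folds with 1 direction in both batches, which favours small p-values.

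Users of the isoprenoid branch were not lower as a list. Of 12 genes for ubiquinone, dolichol and protein prenylation, both batches had 7 higher and 2 lower, beside 30.9% and 28.3% of all genes tested. The median log2 fold change was 1.04 by the fit, but 0.30 and 0.52 within batches 2 and 3. None met edgeR's unadjusted p under 0.05 in either direction (0 of 12), beside 3.23% of all genes lower and 5.04% higher. DESeq2 called 0 as lower and 1 as higher, beside 4.11% and 7.13% of all genes it tested. Nus1 had a log2 fold change of 1.05 ± 0.60, and Dhdds, its partner in dolichol synthesis, -0.78 ± 1.13. Rabggtb, a subunit of the Rab prenylating enzyme, had -0.70 ± 0.39. Of 7 tested insulin and mTOR inputs to SREBP-1, 4 were lower and 2 higher in both batches, beside 28.3% and 30.9% of all genes tested. None met edgeR's unadjusted p under 0.05 (0 of 7, with 0 by DESeq2 in either direction). Akt1 had -1.32 ± 0.90 and Pik3ca 0.93 ± 0.51.

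**Figure D5:**
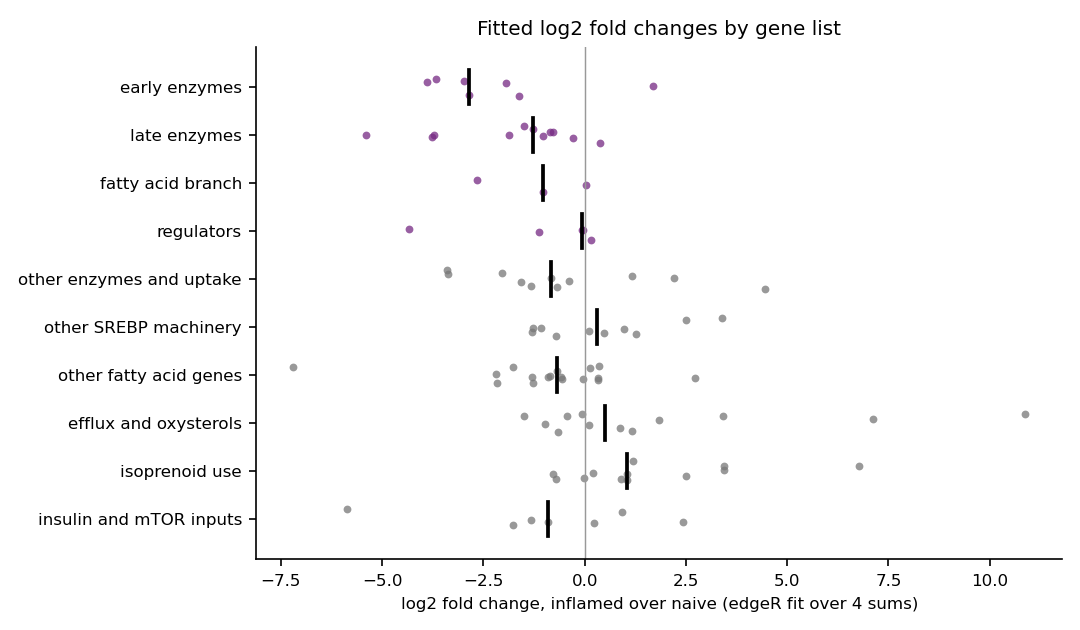
Fitted log2 fold change (inflamed over naive) of each tested gene by list; points are genes, black bars medians, purple the lists of members and grey the other lists. Early enzymes have the lowest median (-2.85) of the lists drawn, and the isoprenoid users the highest (1.04).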

How the data were processed

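The values the authors deposited are raw read counts (a row per gene, a column per cell, and a table for each of the 2 batches) from C1 SMARTer libraries sequenced as single-end reads, per the labels' protocols. This chemistry has no molecular identifiers, so counts are reads. TopHat2, HTSeq, R 3.4.1, Seurat 1.4 and GRCm38.p6 are named per the submitters' processing notes. Symbols came from GENCODE M21 (48058 of 48440 identifiers matched), 0 rows named no gene and no 2 cells had identical counts. No doublet caller was run.

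Kept cells were summed per condition and batch and tested with edgeR 4.0.16 in R 4.3.3 (quasi-likelihood, TMM, filterByExpr, condition and batch in the model, prior degrees of freedom 2.66, Benjamini-Hochberg). Standard errors (±) were not estimated directly. They were derived as the absolute log2 fold change divided by the square root of edgeR's F statistic. DESeq2 1.42.0 was an alternative. The labels name the batch, which pairs the sums. CPM used TMM-corrected library sizes, and within-batch folds of single genes used a prior count of 2. Fits were tested on simulated data. The members and lists were chosen with earlier results of these data known. All members are named. Of each other list the text names up to 3 genes with the greatest fold change among those read in at least 20% of cells with 1 direction in both batches, plus Scd1. Some genes that the rule names are not reported here. Alternatives varied scaling, filters, cells, depth, the batch term and single cells.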

Additional observations from a re-analysis of the deposited data

How the results depend on the processing

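The 28 members had 356 values under up to 13 alternatives each, and 26 had the opposite sign, all in the 10 members whose batches disagreed and 0 in the 18 lower in both. This split is partly built in. The alternatives include each batch alone, where by construction each of the 10 had a reversal and the 18 could have none. Of the 9 members with edgeR's unadjusted p under 0.05, all but Fasn (8) kept it under every edgeR alternative run. The lowest edgeR adjusted p of any gene was 0.0887 with genes read in at least 20% of cells and 0.297 with no replicate block, so no alternative by edgeR called a member, while DESeq2 called 9. Without the block, the medians were -2.45 (early enzymes) and -1.42 (late enzymes), and Mvk was at 0.10. The late median was -1.50 with the 20% filter, -1.48 with thinned cells, -1.42 without cells with mitotic reads and -1.10 without the top cell of each sum. Batch 2 or batch 3 alone gave -2.74 to -1.95 for the sterol branch, -3.36 to -2.89 for early and -1.70 to -1.55 for late enzymes. Sign reversals without the top cell were Mvk 2.66, Lss 1.06, Ggps1 0.11, Srebf2 0.28 and Scap 1.59. With equal weight per cell they were Dhcr7 -0.25, Ggps1 0.18 and Scap 0.21. With thinned cells they were Dhcr7 -0.66, Srebf2 0.00 and Scap 0.19. Upper-quartile factors gave Ggps1 0.01 and Srebf2 0.01, no filter on low genes gave Ggps1 0.00, and removal of cells with mitotic reads gave Acaca -0.01. Batch 2 alone and batch 3 alone gave 2.00 and -5.12 for Mvk, -5.36 and 8.63 for Mvd, 0.15 and -1.70 for Lss, 0.75 and -1.33 for Nsdhl, and -5.43 and 5.95 for Dhcr7. The other 5 had -1.0 and 0.94 (Ggps1), -0.36 and 0.31 (Srebf2), -0.43 and 0.29 (Scap), 0.64 and -0.34 (Insig2), and -0.56 and 0.62 (Acaca). The cause of these shifts was not tested, apart from the fewer samples or genes an alternative leaves by construction. With 2 sums per condition, genes carried by single cells have no usable precision.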

Other observations

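Genes read in under 20% of cells were left out by the rule for named genes, and 2 of them are given here because of their values, seen beforehand. Cyp7b1, a hydroxylase that clears oxysterols, was at 0.709 and 0.0211 CPM in naive sums against 35.6 and 12 CPM in inflamed sums. Reads of it were found in 1.89% and 1.69% of naive and 21.2% and 2.63% of inflamed cells. No p-value is given for it, since the gene was picked for this gap. Ch25h, which makes 25-hydroxycholesterol, had 0 reads in both naive sums and 213 and 370 reads in the inflamed sums, of which single cells gave 55.9% and 54.3%. Its reads were found in 6.25% and 3.95% of inflamed cells.

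The level of sterol genes also varied widely among naive cells. Hmgcs1 had a read in all naive cells of batch 3, but their 25th percentile was only 16.6 CPM, while the median was 1135 CPM and the highest cell reached 10477 CPM. In inflamed cells of batch 2 the median of Hmgcs1 was 12.8 CPM and the 75th percentile 296.5 CPM, below the naive 25th percentile of 335 CPM in that batch. In batch 3 the inflamed 75th percentile, at 325.3 CPM, was above the naive 25th percentile, so the 2 batches differed in how far the cells' levels overlapped.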
